A study of Caenorhabditis elegans with 4 samples.

Results

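The regions described here are RNA polymerase II peaks in a pair of broad domains of chromosome IV of *Caenorhabditis elegans* that are known for their many piRNA genes. A peak was counted as a member when its midpoint lay on IV from 4.5 to 7 Mb, called the proximal domain, or from 13.5 to 17.2 Mb, called the distal domain (build WS220). The domains span 2.5 and 3.7 Mb. They held 108 of the 2672 peaks of ChIP replicate 1 (59 distal and 49 proximal), 139 of the 3818 peaks of ChIP replicate 2 (67 distal and 72 proximal) and 741 of the 18518 peaks of a series-level list (336 distal and 405 proximal). The remaining 11.3 Mb of IV held 310, 488 and 2359 peaks in the same lists.

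The lists come from chromatin immunoprecipitation of AMA-1, the large catalytic subunit of RNA polymerase II, followed by sequencing. The material was mixed-stage embryos, male and hermaphrodite, of the wild-type laboratory strain N2, grown at 20 °C, and all samples shared this genotype and stage. There were 2 ChIP samples and 2 input samples, and values of the inputs were not analysed here. Whole embryos mix all their cell types, so a region bound in few cells and a region bound weakly in many cannot be told apart. Nothing in the labels ties the replicates to separate cultures, so differences between them may be technical.

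piRNAs of *C. elegans*, called 21U-RNAs, are small RNAs of the germline that bind the Argonaute protein PRG-1 and silence foreign and repeated sequences. Each is made from its own very short transcription unit, which RNA polymerase II transcribes in germ cells from a small promoter with the help of factors such as PRDE-1 and the snRNA activating complex subunit SNPC-4. Most cells of an embryo are somatic, and germline precursors are few. As a check of the label, 14714 of 15363 genes of piRNA biotype in the RefSeq gene table (95.8%) were assigned to IV, against 78 to 202 on each other chromosome. That table is of assembly WBcel235 and not of WS220, so its positions were not set against the domains, no gene is named for a peak and no sequence is printed.

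Polymerase peaks were sparser in both domains than on the rest of IV. Density was lowest in the distal domain, though its difference from the proximal domain did not exceed counting error in replicate 1. In replicate 1 the distal domain had 15.9 peaks per Mb, with an exact 95% Poisson interval of 12.1 to 20.6, and in replicate 2 it had 18.1 (14.0 to 23.0). The proximal domain had 19.6 (14.5 to 25.9) and 28.8 (22.5 to 36.3), and the rest of IV had 27.5 (24.5 to 30.8) and 43.3 (39.6 to 47.4). In both replicates the intervals of the distal domain and of the rest of IV did not overlap.

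The ratio of distal density to that of the rest of IV was 0.579 (exact conditional interval 0.431 to 0.767) for replicate 1 and 0.418 (0.319 to 0.540) for replicate 2, a mean of 0.499 ± 0.114 (SD, n = 2). For the proximal domain it was 0.712 (0.516 to 0.965) and 0.665 (0.512 to 0.853), a mean of 0.688 ± 0.0335 (SD, n = 2). A ratio was called where its 95% interval excluded 1 on the same side in both replicates, and both ratios were called. Set directly against each other, the distal and proximal domains had a density ratio of 0.814 (0.548 to 1.21) in replicate 1 and 0.629 (0.444 to 0.889) in replicate 2, so that difference was found in replicate 2 alone and was not called. The intervals reflect counting error alone, and peaks near each other are not independent. Intervals were also widened for 8 ratios, those of each domain and of both together to the rest of IV and of the distal to the proximal domain, in 2 replicates. The proximal interval of replicate 1 then included 1 (0.452 to 1.08), as did the distal to proximal interval of replicate 2 (0.389 to 1.01), while those of the distal domain to the rest of IV stayed below 1. Ratios to other parts of IV were not in that adjustment. The proximal call was also lost against the part of IV before that domain, where the ratio was 0.726 on average, and among peaks at or above the median score of their list, where it was 0.817.

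**Figure D1:**
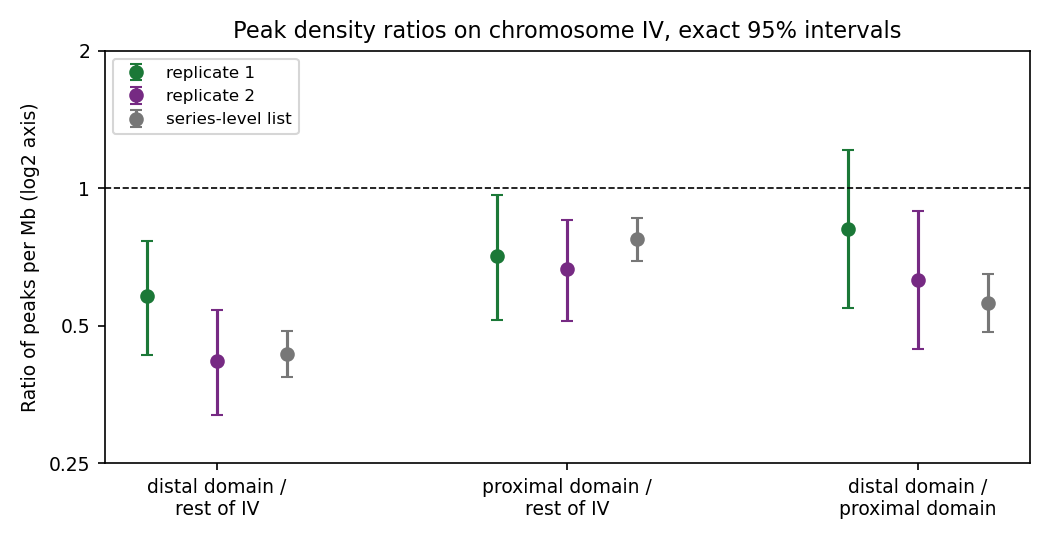
Ratio of peaks per Mb on a log2 axis for the distal domain against the rest of IV, the proximal domain against the rest of IV, and the distal against the proximal domain, with exact 95% intervals for each list. All 6 ratios to the rest of IV lie below 1, and in the last comparison the interval of replicate 1 (0.548 to 1.21) crosses 1.

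The same order held in the series-level list, which is no further replicate. It had 90.8 peaks per Mb in the distal domain (81.4 to 101), 162 in the proximal domain (147 to 179) and 209 on the rest of IV (201 to 218). In this denser list the distal to proximal ratio was 0.561 (0.484 to 0.649). Bases under peaks had the same order of these regions. Peaks covered 5.41% of the distal domain, 9.57% of the proximal domain and 11.0% of the rest of IV in replicate 1, and 8.92%, 14.2% and 18.9% of the same regions in replicate 2. The rest of IV was mixed, with 8.20% and 15.8% covered before the proximal domain in replicates 1 and 2, and 13.1% and 21.5% between the domains. The proximal domain was thus covered more than the part before it in replicate 1, and less in replicate 2.

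Within the distal domain the bins from 15 to 17 Mb held the fewest peaks, and the short piece after them held more. In bins of 500 kb, the part from 13.5 to 15 Mb held 10, 12 and 13 peaks per bin in replicate 1 and 12, 9 and 13 in replicate 2. The 4 bins from 15 to 17 Mb held 2, 6, 8 and 2 peaks in replicate 1 and 5, 6, 5 and 8 in replicate 2. Every one of these 4 bins was below each of the 3 bins before it in both replicates. The last 0.2 Mb of the domain, from 17 to 17.2 Mb, held 6 and 9 peaks in replicates 1 and 2 and 36 series-level peaks. That is 30 (11.0 to 65.3), 45 (20.6 to 85.4) and 180 (126 to 249) peaks per Mb, against 9 (5.33 to 14.2), 12 (7.69 to 17.9) and 60 (49.7 to 71.7) from 15 to 17 Mb. Divided at 15 Mb, a point chosen after these bins were seen, the outer part, this last piece included, had 10.9 and 15.0 peaks per Mb and the inner part 23.3 and 22.7 in replicates 1 and 2. The ratio of outer to inner was 0.468 (0.266 to 0.809) in replicate 1 and 0.662 (0.397 to 1.10) in replicate 2, so it was not called. On the rest of IV the 22 full bins held 6 to 23 peaks with a median of 14 in replicate 1, and 12 to 32 with a median of 21 in replicate 2.

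Peak counts on both sides of the borders were compared over 500 kb each. The first 500 kb inside the distal domain held 10 and 12 peaks in replicates 1 and 2 and 54 series-level peaks, and the 500 kb just before it held 19, 32 and 144. The ratio was 0.526 (0.219 to 1.19), 0.375 (0.176 to 0.748) and 0.375 (0.269 to 0.516) in these lists, so the interval excluded 1 in replicate 2 and the series-level list but not in replicate 1. The 500 kb before this border held the highest count of any full bin outside the domains in the series-level list, and tied for the highest in replicate 2. The bin from 12.5 to 13 Mb held 14 and 12 peaks in replicates 1 and 2 and 88 series-level peaks. In replicate 2 it thus held as many as the first 500 kb inside the domain. At the start of the proximal domain the ratios were 0.643 (0.245 to 1.59), 0.944 (0.457 to 1.94) and 0.784 (0.585 to 1.05). At its end they were 1.10 (0.424 to 2.89), 0.952 (0.490 to 1.85) and 0.965 (0.705 to 1.32). All 6 proximal intervals included 1, and the borders were not tested against each other. Inside the proximal domain, the bins from 5 to 5.5 Mb and from 6 to 6.5 Mb were low, with 5 and 7 peaks in replicate 1 and 9 in each in replicate 2. The bin between them held 17 peaks in both replicates.

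**Figure D2:**
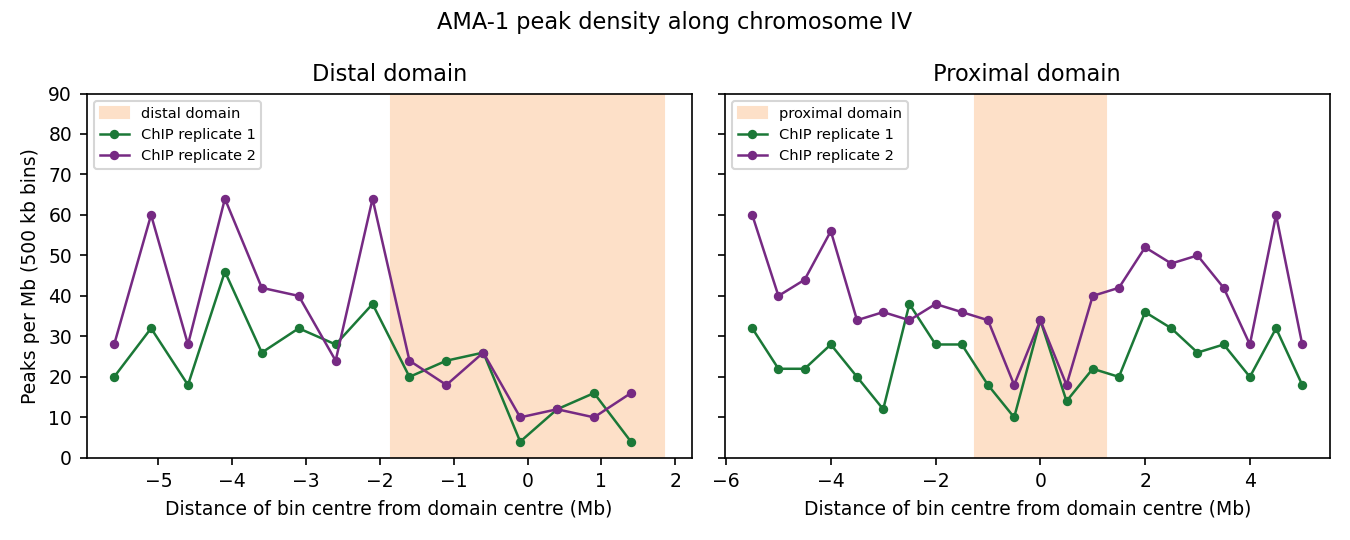
Peaks per Mb in 500 kb bins of chromosome IV for both ChIP replicates, by distance of the bin from the centre of the distal domain (left) or the proximal domain (right), with the domain shaded; the short last bin of the chromosome is not drawn. On the left, both lines drop from the high bin just before the inner border of the distal domain and are lowest from 15 to 17 Mb. The proximal domain holds low bins on both sides of a central bin with 34 peaks per Mb in each replicate.

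The distal domain lies on a chromosome arm and the proximal one toward the centre, so position along the chromosome cannot be told apart from domain on IV alone. The spans of the same relative position on the other chromosomes were therefore measured. In the relative span of the distal domain, IV had 15.9 and 18.1 peaks per Mb in replicates 1 and 2, and the other 4 autosomes together had 26.2 and 38.0. The ratio was 0.608 (0.454 to 0.803) and 0.476 (0.363 to 0.615), a mean of 0.542 ± 0.0936 (SD, n = 2). Chromosome V was close to the distal domain, with 9.49 (6.84 to 12.8) in replicate 1 and 20.3 (16.3 to 24.98) in replicate 2, so the distal domain was the second lowest of 6 chromosomes in one replicate and the lowest in the other. In the relative span of the proximal domain, IV had 19.6 and 28.8 peaks per Mb and the other 4 autosomes 33.8 and 44.1, a mean ratio of 0.616 ± 0.0528 (SD, n = 2). There X was the only chromosome below IV in both replicates, with 18.5 (13.6 to 24.6) and 28.0 (21.9 to 35.3), and V followed with 23.4 and 30.7. The intervals of IV, V and X overlapped in this span. Each span was also set against all of its own chromosome outside that span. On IV this takes in the other domain, so the values differ from the ratios to the rest of IV given above. By this measure the proximal span of IV had ratios of 0.795 (0.577 to 1.07) and 0.776 (0.599 to 0.994), the lowest of the 6 in both replicates. In the series-level list X was lower, with 0.873 (0.775 to 0.980) against 0.899 (0.808 to 0.999) for IV. By the same measure the distal span of IV had 0.611 (0.456 to 0.807) and 0.445 (0.340 to 0.574), and V was lower in replicate 1, with 0.434 (0.307 to 0.598), but not in replicate 2, with 0.720 (0.568 to 0.904).

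**Figure D3:**
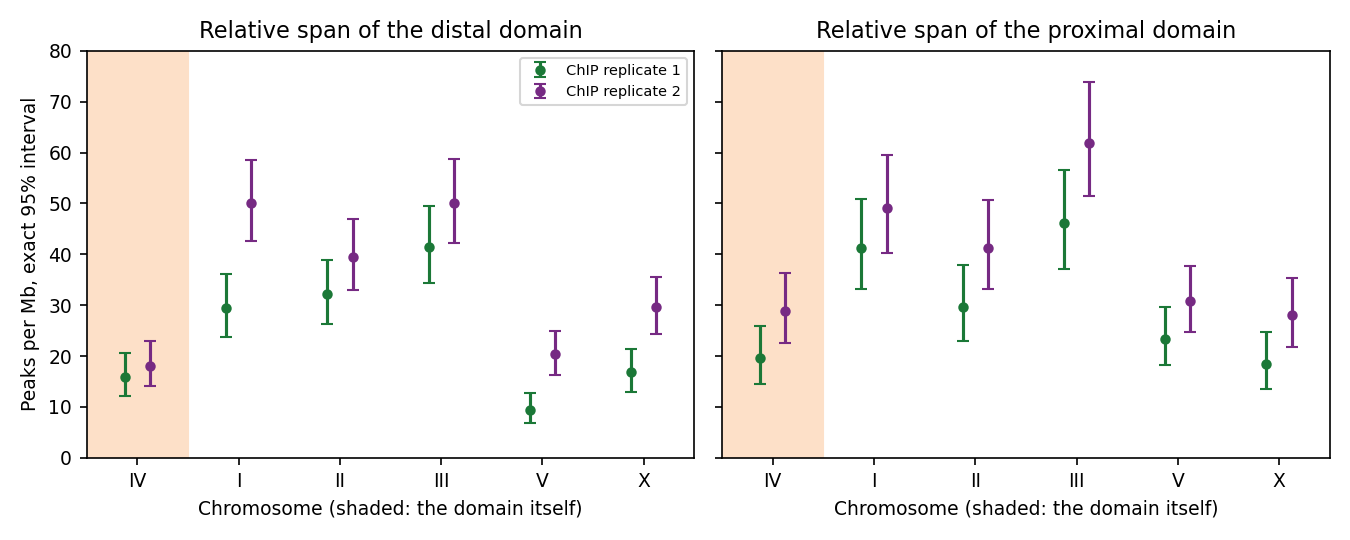
Peaks per Mb with exact 95% Poisson intervals in the relative span of the distal domain (left) and of the proximal domain (right) on IV, shaded, and on the other chromosomes, for both ChIP replicates. In the distal span V and IV are lowest in both replicates, with X at 16.8 close to IV in replicate 1, and in the proximal span IV, V and X lie together below I, II and III.

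Long stretches without any peak made up much of the distal domain. Stretches of 100 kb or more that were free of peaks of both replicates took up 55.3% of the distal domain in 11 stretches, 26.8% of the proximal domain in 4 stretches, and 4.56% of the rest of IV in 4 stretches. In replicate 1 alone the shares were 66.1%, 52.9% and 23.1%, and in replicate 2 alone 55.4%, 27.0% and 4.72%, in the same order of regions. The parts of the rest of IV differed. In replicates 1 and 2 the share was 36.1% and 8.45% before the proximal domain, and 13.2% and 2.33% between the domains. It was 46.4% and 0% in the short piece after the distal domain. Such shares depend on peak density, and the part of density in them was not tested. The order of the 3 regions was the same in both replicates, and the longer replicate 2 list left smaller shares in each. The series-level list, with more and narrower peaks, left 43.2% of the distal domain, 7.30% of the proximal domain and 4.03% of the rest of IV in such stretches.

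The longest stretch of the distal domain ran over IV:15051502-15472687, 421.2 kb, and held 6 series-level peaks with scores up to 8.09. It was followed by IV:15648908-15941901 with 293.0 kb and 4 series-level peaks, and by IV:16173627-16379904 with 206.3 kb and no series-level peak. In the proximal domain the longest stretches were IV:4812970-5077535 with 264.6 kb, IV:5187704-5354214 with 166.5 kb and IV:6155712-6293527 with 137.8 kb, which held 2, 6 and 3 series-level peaks. The longest stretch on the rest of IV measured 145.1 kb, less than each of the 3 longest of the distal domain and the 2 longest of the proximal domain. Of the 37 windows of 100 kb in the distal domain, 14 had no base covered in both replicates, a share of 37.8% (Wilson interval 24.1 to 53.9). The proximal domain had 5 of 25 such windows (20.0%, 8.86 to 39.1), and the rest of IV had 9 of 112 (8.04%, 4.29 to 14.6).

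**Figure D4:**
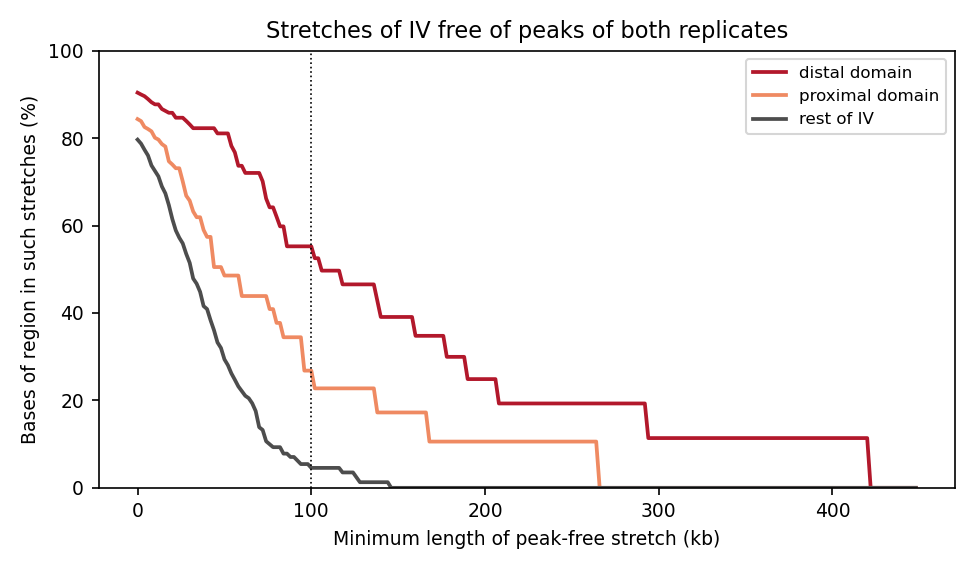
Share of the bases of the distal domain, the proximal domain and the rest of IV that lie in stretches free of peaks of both replicates, against the minimum length of stretch counted; the dotted line marks 100 kb. At 100 kb the shares are 55.3%, 26.8% and 4.56%, and the curve of the rest of IV reaches 0 after its longest stretch of 145.1 kb.

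Densities were also taken over the bases outside these long stretches, a description chosen after the stretches were seen. The bases left out were those without peaks in the same lists, which by construction moves the ratio of the emptier region up, so nothing is read from these ratios about how closely its peaks are packed. Per Mb of the bases left, the distal domain had 35.6 peaks in replicate 1 and 40.5 in replicate 2, the proximal domain 26.8 and 39.4, and the rest of IV 28.8 and 45.4. Ratios to the rest of IV were 1.24 (0.919 to 1.64) and 0.891 (0.680 to 1.15) for the distal domain, and 0.929 (0.672 to 1.26) and 0.867 (0.667 to 1.11) for the proximal domain. All 4 intervals included 1, and this did not hold for the distal domain at another minimum length. With stretches of 50 kb or more left out, the distal ratio was 2.16 (1.61 to 2.87) in replicate 1 and 1.56 (1.19 to 2.02) in replicate 2. Within the long stretches the series-level list held 13.7 peaks per Mb in the distal domain (9.10 to 19.8), 44.7 in the proximal domain (30.2 to 63.9) and 29.2 on the rest of IV (16.3 to 48.2). Outside them it held 186, 205 and 218 per Mb in the same regions. Of the 30 series-level peaks within the long proximal stretches, 19 lay in a single one, IV:5972378-6073924. The other 3 held 2, 6 and 3, so the proximal value rests mostly on that stretch.

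Proximal peaks had the highest median width of the 3 regions in both replicates, and distal peaks had no stable order against the rest of IV. In the distal domain the median width was 2735 bp in replicate 1, with an exact 95% order-statistic interval of 2380 to 3224, and 3460 bp in replicate 2 (2937 to 4532). In the proximal domain it was 4032 bp (3474 to 4223) and 3761 bp (2772 to 4599), and on the rest of IV 3008.5 bp (2743 to 3437) and 3200.5 bp (2942 to 3469). Distal peaks were thus narrower than those of the rest of IV in replicate 1, with a median difference of -273.5 bp, and wider in replicate 2, with 259.5 bp. Proximal peaks were wider in both, by 1023.5 and 560.5 bp, a mean of 792 ± 327 bp (SD, n = 2). The rest of IV was not uniform. Between the domains its median width was 3735 bp (3146 to 4170) and 3427.5 bp (3136 to 3872) in replicates 1 and 2. Before the proximal domain it was 2498 bp (2251 to 2645) and 2754 bp (2440 to 3218). The proximal intervals overlapped those between the domains in both replicates. The proximal interval lay just above that of the rest of IV in replicate 1 and overlapped it in replicate 2. Distal minus proximal was -1297 bp in replicate 1, where the intervals did not overlap, and -301 bp in replicate 2, where they did, a mean of -799 ± 704 bp (SD, n = 2). In the series-level list the medians were 431.5 bp distal, 412 bp proximal and 379 bp on the rest of IV. Broad peaks of 8 kb or more made up 5.08% of distal peaks (3 of 59), 14.3% of proximal peaks (7 of 49) and 9.68% of the rest of IV in replicate 1, where 11.0% of all peaks were that wide. In replicate 2 they made up 19.4% (13 of 67), 16.7% (12 of 72) and 12.3%, where 14.1% of all peaks were. The shares in replicates 1 and 2 were 12.6% and 15.8% between the domains, and 5.22% and 6.88% before the proximal domain.

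Scores were compared as percentiles within each list, where 0 is its weakest peak and 100 its strongest. The median percentile was 45.0 and 52.4 in the distal domain (replicates 1 and 2), 56.0 and 53.0 in the proximal domain, and 48.6 and 47.5 on the rest of IV. In both replicates the order-statistic intervals of the domains overlapped those of the rest of IV. In the series-level list the distal median was 55.9 (50.9 to 61.9), the proximal 52.2 (47.8 to 57.1) and that of the rest of IV 47.9 (45.7 to 49.3), so there the distal interval lay above that of the rest of IV. Several series-level peaks can lie in a single replicate peak, so they are not independent and these intervals are no test. Proximal minus rest of IV was 7.39 and 5.53 percentile points, and distal minus rest of IV was -3.58 and 4.93, with opposite signs in the replicates. These differences depend on the part of IV compared. In replicates 1 and 2 the median percentile was 53.5 and 51.5 between the domains, and 39.0 and 42.0 before the proximal domain. Among peaks found in the other replicate the distal differences were both positive, at 3.84 and 11.9, as they were with the domains narrowed by 250 kb, at 4.04 and 7.07.

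**Figure D5:**
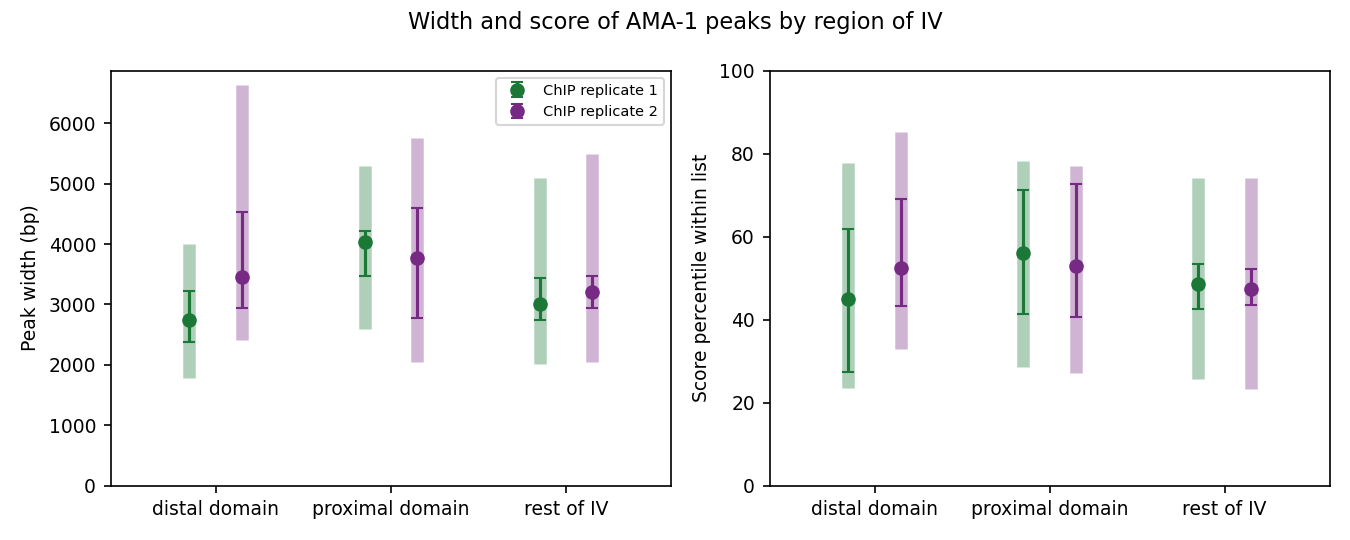
Width in bp (left) and score percentile within the list (right) of peaks in the distal domain, the proximal domain and the rest of IV for both ChIP replicates; points are medians with exact 95% order-statistic intervals and pale bars run between the quartiles. The score intervals overlap throughout, and the proximal width of replicate 1 (median 4032 bp) stands above that of the rest of IV (3008.5 bp).

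In replicate 2 alone, peaks with a score of 3100 or more were unevenly divided between the domains. Scores in the replicate lists pile up at 3100, and 4.12% of all peaks of replicate 1 and 10.3% of those of replicate 2 reached that value. In replicate 2, 12 of 67 distal peaks did so (17.9%, Wilson interval 10.6 to 28.7), against 1 of 72 proximal peaks (1.39%, 0.246 to 7.46) and 44 of 488 on the rest of IV (9.02%, 6.79 to 11.9). The distal and proximal intervals did not overlap, and the distal one overlapped that of the rest of IV. In replicate 1 the counts were 4 of 59 distal peaks (6.78%, 2.67 to 16.2), 0 of 49 proximal peaks (Wilson upper limit 7.27%; the 3 counts that a count of 0 allows would be 6.12%) and 16 of 310 on the rest of IV (5.16%, 3.20 to 8.22), with overlapping intervals. All 12 distal peaks of this height in replicate 2 overlapped a replicate 1 peak, as did all 44 on the rest of IV and 98.5% of the 393 on all chromosomes. Of the 12, 8 lay in the inner part of the distal domain, which held 34 of all 67 distal peaks of replicate 2. In the series-level list the highest 10.0% of scores took in 13.4% of distal peaks (10.2 to 17.5), 10.1% of proximal peaks (7.55 to 13.4) and 8.48% of those on the rest of IV (7.42 to 9.67). The distal and proximal intervals overlapped there.

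Peaks of the domains were found again in the other replicate about as often as peaks over all chromosomes. In replicate 1, 51 of 59 distal peaks (86.4%, 75.5 to 93.0) and 41 of 49 proximal peaks (83.7%, 71.0 to 91.5) overlapped a replicate 2 peak by at least 1 bp. The share was 90.3% (86.5 to 93.1) on the rest of IV and 86.8% over all chromosomes. In replicate 2, 38 of 67 distal peaks (56.7%, 44.8 to 67.9) and 38 of 72 proximal peaks (52.8%, 41.4 to 63.9) overlapped a replicate 1 peak. There the share was 51.6% (47.2 to 56.0) on the rest of IV and 52.6% over all chromosomes. Replicate 1 peaks covered less of the domains than of the rest of IV, as given above, and the part of that in these shares was not tested.

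In the domains as on the rest of IV, peaks found in 1 replicate alone had lower scores than shared ones. In replicate 2 the median score was 1651.89 for shared and 197.75 for unshared distal peaks, and 1191.67 and 164.06 for shared and unshared proximal ones, with 908.255 and 153.285 on the rest of IV. Shared distal peaks had a median width of 5903 bp and unshared ones 2280 bp, and on the rest of IV the widths were 4913 and 2148.5 bp. At sites with exactly 1 peak in each replicate the scores had a Spearman rho of 0.80 over 27 distal sites, 0.79 over 35 proximal sites and 0.59 over 218 sites on the rest of IV, given as descriptions because neighbouring sites share libraries and are not independent. At 25 of the 27 distal sites replicate 2 had the wider peak, with a median ratio of widths of 1.57, at 29 of the 35 proximal sites with a ratio of 1.17, and at 168 of 218 sites on the rest of IV with a ratio of 1.19.

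Of the series-level peaks, 35.7% of the distal ones (30.8 to 41.0), 31.1% of the proximal ones (26.8 to 35.8) and 29.2% of those on the rest of IV (27.4 to 31.1) overlapped peaks of both replicates, against 33.2% over all chromosomes. Those in neither replicate came to 25.6% (21.2 to 30.5), 29.6% (25.4 to 34.3) and 27.8% (26.0 to 29.7), against 25.4% over all chromosomes. The distal shares were close to those of the whole list. The proximal share in neither replicate was somewhat above it, as was that of the rest of IV, whose share in both replicates lay below it. The parts of the rest of IV differed. Before the proximal domain 20.8% were in both replicates and 34.7% in neither, and between the domains 35.5% and 22.6%.

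The series-level peaks of the distal domain with the highest scores, among those found in both replicates, included 2 close to the third longest peak-free stretch. The strongest of all lay at IV:16397246-16399905, 2660 bp wide, with a score of 139.06 at percentile 99.8. The fifth in the order, at IV:16380297-16382586 with a score of 100.37, lay before it, in a replicate 2 peak that starts at the end of that stretch. The peak with the highest replicate 1 score of the domain, 3204.37 at IV:16167190-16171567, lay at the other end of the stretch, in a replicate 2 peak with a score of 3100. The other 3 named peaks lay in the inner part, at IV:14789219-14796434 (7216 bp, score 126.88), IV:14032335-14035341 (3007 bp, 110.45) and IV:14956408-14957581 (1174 bp, 103.69). The peak at IV:14032335-14035341 had a score of 3100 in both replicates.

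In the proximal domain the strongest peak found in both replicates was at IV:6645479-6649990, 4512 bp wide, with a score of 153.61 in the series-level list, 2973.31 for replicate 1 and 3100 for replicate 2. The next ones were IV:5182651-5185145 (score 141.54), IV:6294063-6295774 (97.44), IV:5650475-5656308 (85.06) and IV:6322733-6324085 (82.79). Of these, 3 lay inside replicate peaks wider than 10 kb. The peak at IV:5182651-5185145, with percentile 99.8 in the series-level list, sat in a replicate 1 peak at percentile 60.9 and a replicate 2 peak at percentile 84.7.

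The widest replicate peaks of the proximal domain exceeded those of the distal one. The widest shared replicate 1 peaks were IV:15036906-15048110 (11205 bp) and IV:16644142-16654549 (10408 bp) in the distal domain, and IV:5171741-5187392 (15652 bp) and IV:6322349-6337710 (15362 bp) in the proximal domain. Each overlapped a single replicate 2 peak that was wider still, of 14878, 11789, 17254 and 19168 bp. The distal pair ranked higher in replicate 1 than in replicate 2, at percentiles 94.9 and 70.1 for the first and 80.5 and 35.4 for the second. The first of them lay just before the longest peak-free stretch. Among windows of 100 kb, overlap of the replicates covered most bases in IV:14800001-14900000 in the distal domain, with 19.9 kb, and IV:4700001-4800000 in the proximal domain, with 22.6 kb. Of the windows with no such base, the first were IV:13600001-13700000, with no peak in any of the 3 lists, and IV:4500001-4600000, with 2 replicate 2 peaks and 11 series-level peaks. Up to 34.3% of a window was covered in both replicates on the rest of IV, against up to 19.9% in the distal and 22.6% in the proximal domain.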

How the data were processed

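The submitters' processing notes name BWA and the build ce10. The authors deposited 3 peak lists, in WormBase WS220 coordinates per the file headers. Peaks of the replicates were called with MACS and those of the series-level list with MACS v2, per the source column of the files. Not given in the sources used here are the calling thresholds, the control and how the series-level list was put together. The deposited score per peak is the caller's own value with no stated scale, so it was used as a percentile within its list. Read depth is unknown.

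A peak belonged to a region by its midpoint. IV was taken to end at its last peak end in any list. Densities have exact Poisson intervals, ratios exact conditional binomial intervals, shares Wilson intervals and medians exact order-statistic intervals, with 95% confidence, for counting error alone. Widths and scores were not tested, since peaks are not replicates. Overlap meant at least 1 bp. Peak-free stretches were cut at region borders.

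Named regions followed a rule: per domain, the 5 highest series-level scores among peaks of both replicates, the 2 widest shared replicate 1 peaks, the 3 longest peak-free stretches, and the windows of 100 kb with most and fewest bases covered in both replicates. The region of the highest replicate 1 score was added after values were seen. Members and comparisons were chosen with earlier results of these data known. Routines were tested on simulated data. The tools were scipy 1.17.1, pandas 2.3.3, numpy 2.4.6 and matplotlib 3.10.9 under Python 3.11.15.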

Additional observations from a re-analysis of the deposited data

How the results depend on the processing

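Of 112 alternative values, 78 kept their direction and call or, with no test, moved by less than the replicate spread or interval. Some of the 78 could not come out otherwise. With n = 2, each replicate's difference of medians always lies within the SD of the mean. A ratio called in both replicates also stays called when either is left out. All 33 alternatives of the ratios to the rest of IV stayed below 1, and those of both domains together and of the distal domain with an interval stayed called. The proximal ratio, 0.688, was not called against the part of IV before it, 0.726, nor with the weaker scores of each list left out, 0.817, and was 0.812 in covered bases. The distal to proximal ratio was 0.629 without replicate 1, where it was called, 0.814 without replicate 2, 0.596 in covered bases, and 0.561 and called in the series-level list. The outer to inner ratio ranged from 0.468 without replicate 2, where it was called, to 0.662, and was called in the series-level list, 0.591. Outside long stretches the distal ratio of 1.06 turned to 0.891 without replicate 1, was 1.24 without replicate 2, and was 1.86 and called with stretches of 50 kb or more left out. Leaving out bases without peaks moves this ratio up by construction, so nothing is read from that call.

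In the series-level list the proximal width difference was 33.0 bp, and the score differences were 8.01 percentile points distal and 4.23 proximal. The distal score difference was 7.88 among shared peaks and the proximal one 8.23 with domains narrowed by 250 kb. Leaving out a replicate gave shares in peak-free stretches of 55.4% to 66.1% distal, 27.0% to 52.9% proximal and 4.72% to 23.1% on the rest of IV. They were 43.2% distal and 7.30% proximal in the series-level list; 68.1%, 51.0% and 23.3% once scores below the median were left out; and 81.1%, 48.6% and 29.4% for stretches of 50 kb or more. Replicate 2 distal peaks were found in replicate 1 at 44.8% by 50% overlap and 44.8% by midpoint. For peaks at or above the median score, sharing was 83.3% there, 82.9% for replicate 2 proximal peaks and 96.4% for replicate 1 proximal peaks. Such series-level peaks were in both replicates at 50.5% distal and 41.8% proximal, and in neither at 8.76% and 16.0%. For each of these the cause was not tested. The same-span comparisons, the division at 15 Mb and the densities outside stretches were chosen after seeing the data. No paired analysis was possible because values of the inputs were not analysed here.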

Other observations

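One of the stretches counted as free of replicate peaks in the proximal domain, IV:5972378-6073924 (101.5 kb), held a dense run of series-level peaks, chosen here after it was seen. Over IV:5972409-6006397, 34.0 kb, there were 17 series-level peaks that covered 79.9% of the bases, with scores of 1.35 to 105.76. The main one, IV:5978631-5992721, was 14091 bp wide and scored 105.76, at percentile 99.3. It was the widest series-level peak of IV and the sixth widest of all 18518, and neither replicate list had a peak on it. Without this stretch the share of the proximal domain in stretches of 100 kb or more was 22.8%, in 3 stretches.

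Series-level peaks of that kind were rare. Of 204 series-level peaks of 5 kb or more on all chromosomes, 6 overlapped no replicate peak, and the other one on IV lay outside the domains, at IV:11583919-11589237 (5319 bp, score 67.01). Among series-level peaks in neither replicate, a score of at least 15.5, the median of peaks found in both, was reached by 1 of 86 distal peaks, 11 of 120 proximal peaks and 31 of 656 on the rest of IV. Of the 11 proximal ones, 7 belonged to the run. The part of calling or read mapping in this was not tested.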
